A study of Mus musculus with 2 samples.

Results

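The genes described here are 48 genes of G1/S control and DNA replication, chosen by name from the proteins that carry a cell out of G1 and copy its DNA. They were measured in long-term hematopoietic stem cells (LT-HSCs) of 2-year-old C57BL/6J mice on 2 single-colour Agilent arrays, 1 of WT cells and 1 of cells labelled p38KO. The p38KO mice carried CAG-CreERT2 and floxed alleles of p38α (Mapk14), a stress-activated kinase, and were injected with tamoxifen (TAM) at 50 to 60 weeks and examined about 1 year later. The WT cells came from age-matched p38α fl/fl mice without the Cre transgene that also received TAM, so floxed alleles and TAM were common to both. The CAG promoter is active in most tissues, and deletion was therefore not limited to blood cells. By its label the sorted population was CD150+CD48-Flt3-CD34- LSK. The number of mice behind each array is not given in the sources used here. With 1 array per genotype no test between genotypes was possible, and every value below is a description of these 2 arrays.

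Replication is prepared in G1, when the origin recognition complex (ORC) with Cdc6 and Cdt1 loads the ring-shaped MCM helicase onto DNA. D-type cyclins with Cdk4 and Cdk6, then E-type cyclins with Cdk2, inactivate Rb1, and the E2F factors released from it switch on many replication genes. Cdc45 and the GINS complex then join the MCM ring to form the active helicase, and polymerases, the sliding clamp and the single-strand binding protein RPA follow. LT-HSCs are known as mostly quiescent cells that enter this sequence rarely.

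Signals were compared as log2 values relative to the array's own 75th percentile, with the brightest probe taken for each gene. A difference is the value of the array labelled p38KO minus that of the WT array. All 48 genes were well above background on both arrays, of 22555 genes named and 17192 genes detected in this way on one array or both (the genes tested). Probes spotted 5 or more times gave the only error available: the standard deviation (SD) of a difference between single spots was 0.31 for dim probes (level under −2), 0.16 between −2 and 0, 0.11 between 0 and 2 and 0.08 above 2. This is the error of the measurement and holds no spread between mice. The targeted gene, Mapk14, was not lower on the array labelled p38KO, with differences of −0.04 and −0.05 for its 2 probes. The deleted exons are not given in the sources used here, so these probes may lie outside them and check nothing, and all directions rest on the labels.

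Markers of the sorted cells and of other blood cells also differed between the arrays. Of 11 LT-HSC genes 10 were lower on the array labelled p38KO (median difference −0.74), and their summed signal was 158 on the WT array and 122 on the other, in units of the 75th percentile. Neutrophil genes were higher for 7 of 9 (median 1.62, summed signal 8.38 and 25.2), while Elane and Prtn3 were lower (−1.41 and −0.48). B cell genes were higher for 6 of 6 (median 0.75, summed signal 2.66 and 17.5). Without Jchain, the immunoglobulin joining chain, which was 13.5-fold higher, the B cell sums were 1.53 and 2.21, with Ms4a1 not well above background on the WT array. T cell genes were higher for the 4 measured of 6 (median 0.68, summed signal 5.42 and 9.20), while Cd3d and Cd3g were well above background on neither. Erythroid genes were higher for 3 of 6 (median −0.02, summed signal 80.8 and 70.5), and monocyte genes for 2 of 3 (median 0.21, summed signal 29.7 and 34.3). Most of the erythroid sum came from Car2 (log2 level 6.12 and 5.81) and most of the monocyte sum from Csf1r (4.85 and 5.07). Neither sum therefore describes its list as a whole. Of the genes whose proteins the labelled gate excludes, Cd48 was higher by 1.37 at its brightest probe and by 0.19 at another. Flt3 differed by 0.36, with probes from −0.07 to 0.88, and Cd34 by −0.15, with −0.997 at its other probe. Itga2b encodes CD41, which only the methods of the study add to the excluded proteins, and differed by −0.37. The part of other cells in the values below was not tested, and in sorted bulk samples fewer cells with a transcript and less of it per cell cannot be told apart.

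As a whole the 48 genes were balanced around 0 with this scaling. Of them 24 were lower and 24 higher on the array labelled p38KO, whereas 52.4% of all genes tested were lower. Their median difference was 0.00 and the quartiles were −0.20 and 0.22, inside those of all genes tested (median −0.03, quartiles −0.38 and 0.33). Only 3 members (6.25%) were at least 1.5-fold lower, namely Orc5, Gins2 and Ccnd3, against 15.4% of all genes. The other 4 changed members (8.33%) were at least 1.5-fold higher, namely Orc4, Orc3, Cdc45 and E2f2, against 12.7%. At 2-fold, 1 member was lower (Orc5) against 6.62% of all genes, and 0 were higher against 4.11%. Among all genes, brighter probes differed less often, so the members were also set beside genes of their own brightness. Above a level of 2, 1 of 20 members and 9.91% of the genes measured on both arrays differed at least 1.5-fold in either direction. Between 0 and 2 these were 2 of 14 members and 18.8% of genes, and between −2 and 0 they were 4 of 13 and 32.4%. By direction, 8 of 20 members above a level of 2 were lower, with a median of 0.06 against −0.09 for the genes there. Between 0 and 2 the medians were −0.02 and −0.08, and between −2 and 0 they were −0.08 and −0.02. With quantile normalization 21 of the 48 members were lower, and with loess normalization 20. Differences over the spot SD at their brightness were found in 36 members, 18 in each direction, and in 75.6% of the genes measured on both arrays. Within 0.5 of 0 lay 38 members and 65.1% of all genes tested.

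**Figure D1:**
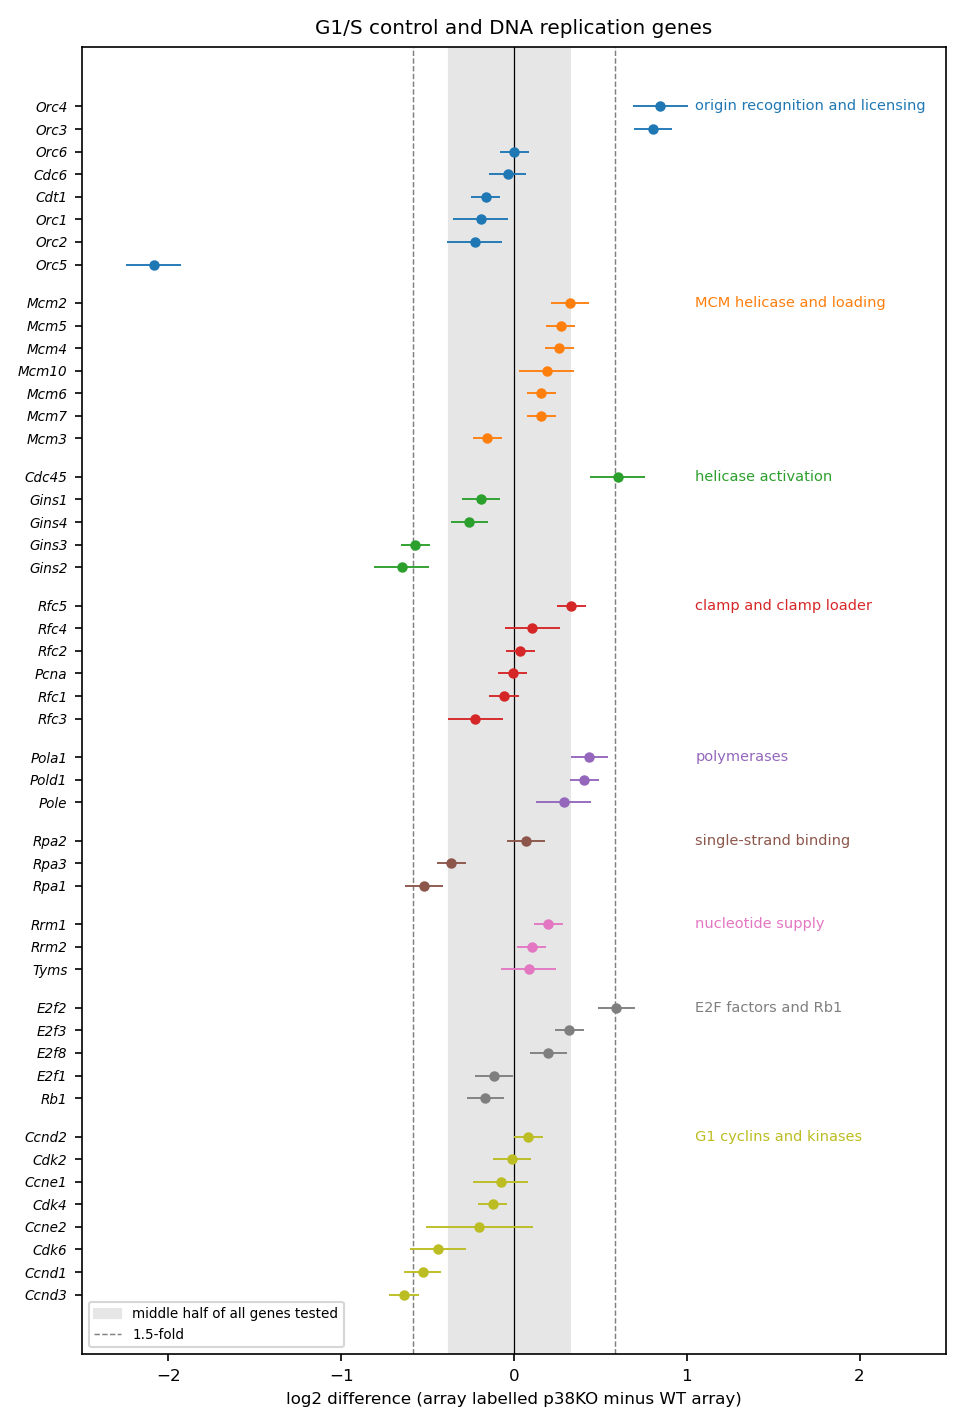
Difference of each of the 48 genes (log2, array labelled p38KO minus WT array), grouped by role, with bars of 1 spot SD at that brightness (a measurement error, not a spread between mice), grey for the middle quartiles of all genes tested and dashed lines at 1.5-fold. Orc5 stands alone at −2.08, the MCM genes other than Mcm3 lie right of 0 and the 4 GINS genes left of it.

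**Figure D2:**
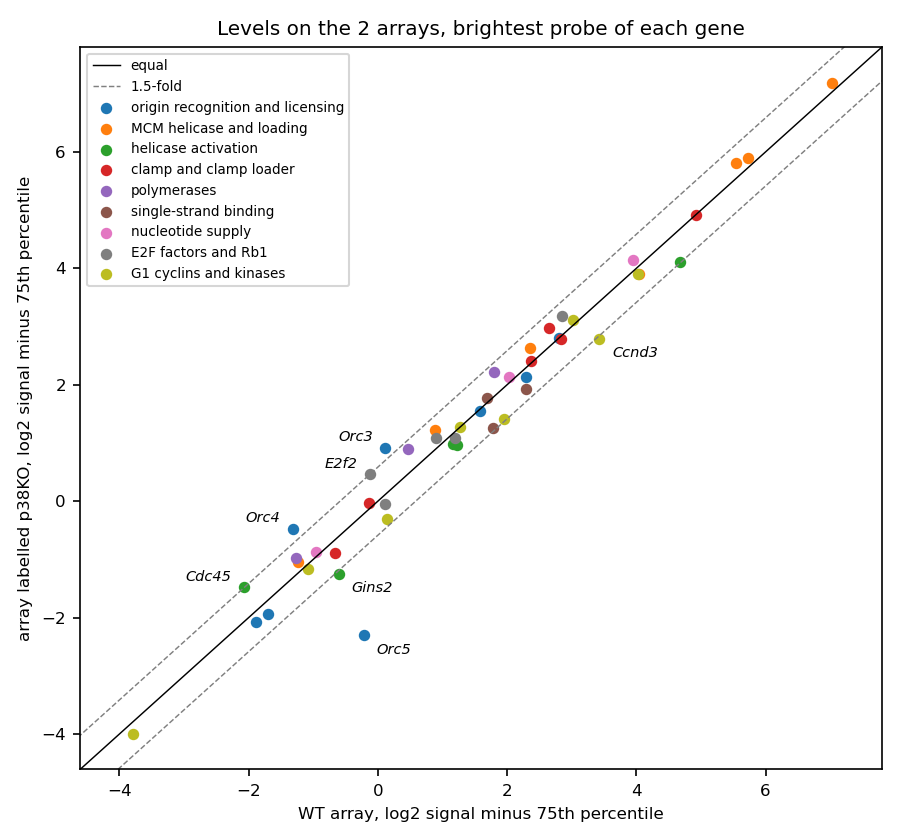
Level of each member on the WT array (x) and on the array labelled p38KO (y), both as log2 signal minus the array's 75th percentile, 1 point per gene. Most points lie between the dashed 1.5-fold lines, and the 7 named genes lie beyond them.

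The origin recognition and licensing genes held the largest difference of the 48 genes in either direction (5 lower, 3 higher, median −0.10). Orc5, a subunit of the complex that marks origins, was at −0.22 on the WT array and −2.30 on the array labelled p38KO, 4.24-fold lower. It rested on a single probe, at chr5:21992937-21992996 of build mm9, and was −0.94 after normexp background correction. Orc4 was higher by 0.85 (−1.32 and −0.47), but only at the probe near the start of its transcript (position 303). The second Orc4 probe, at position 3530, gave −0.12. In Orc3 the higher probe was instead the one nearer the 3′ end. It was the brightest and gave 0.80 (position 2678, 0.12 and 0.92), and the probe at position 2207 gave 0.03. Orc3 and Orc4 were thus each clearly higher at 1 of their 2 probes. Orc6 was level (2.80 on both arrays, difference 0.00), and Orc1 and Orc2 differed by −0.19 and −0.23. The loading factors Cdc6 and Cdt1 differed by −0.04 and −0.16.

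The MCM genes were higher together on the array labelled p38KO, with the exception of Mcm3. Mcm2 to Mcm7 encode the 6 subunits of the helicase ring, and 5 of these 6 genes were higher on the array labelled p38KO (median 0.21). Mcm2 was at 0.89 on the WT array and 1.21 on the other (difference 0.32). Mcm5 was at 2.35 and 2.63 (0.27) and Mcm4 at 5.55 and 5.81 (0.26). Mcm6, at 7.02 and 7.18, and Mcm7, at 5.73 and 5.89, both differed by 0.16. Mcm3 was lower at both of its probes, by −0.15 (4.05 and 3.89) and −0.12, and these probes overlap in the genome, so they are close to one measurement. Mcm10, a helper of helicase activation that is not part of the ring, was higher by 0.19. These differences were at most 1.25-fold. Each exceeded the spot SD at its brightness, as did 75.6% of all genes measured on both arrays and 83.5% of those above a level of 2. None of the 7 genes changed direction under the 10 processing alternatives. In those with 1 probe, the filters and the averaging of probes could not change the value. After normexp, Mcm6 and Mcm7 were higher by only 0.05 each. Mcm3 was at −0.04 with quantile and −0.05 with loess normalization. These 4 values lay within the spot SD.

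E2F factors bind a short GC-rich motif near the start of many replication genes, so the promoters of the genes were searched for it. The letters TTTCCCGC, TTTGGCGC, TTTGCCGC and TTTCGCGC were looked for on both strands from 250 bases before to 50 bases after each start in RefSeq promoters (GRCm38.p6). Of 38 members with a promoter listed there, 15 held at least 1 match (39.5%), compared with 2.60% of all 27025 genes with a promoter and 3.97% of those tested on the arrays. Among the 6 MCM genes with a promoter, 4 held the motif (Mcm3, Mcm5, Mcm6 and Mcm7), in Mcm3 only after the start. Mcm4, Gins1, Gins2, Gins4, Rfc2, Pole, Rb1, Ccnd1, Ccnd2 and Ccne2 had no entry. The stretches below are shown because 3 of them belong to MCM genes that were higher and 1 to Gins3, which was lower, with the same kind of match. Each has 30 bases, reads 5′ to 3′ on the strand of the gene, and has the matched letters in capitals.
Mcm5 (chr8:75109347-75109376, + strand): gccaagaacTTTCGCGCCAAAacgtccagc
Mcm6 (chr1:128359795-128359824, - strand): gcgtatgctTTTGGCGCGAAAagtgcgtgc
Mcm7 (chr5:138172030-138172059, - strand): aatttcgaaccGCGGGAAAcagggtgtcca
Gins3 (chr8:95633507-95633536, + strand): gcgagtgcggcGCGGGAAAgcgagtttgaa

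In Mcm5 and Mcm6 a pair of matches on opposite strands overlap in one run of capitals. In Mcm7 and Gins3 the capitals are the reverse complement of the first motif. The 15 members with a match had a median difference of 0.16 (7 lower) and the 23 without a match one of 0.00 (11 lower). A match is a description of letters and not a bound site.

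The genes that complete the helicase differed in the other direction from the MCM ring, apart from Cdc45. All 4 GINS genes, which encode the complex that clasps the ring, were lower on the array labelled p38KO (median −0.41). Gins2 was at −0.60 and −1.24, a difference of −0.65 or 1.57-fold lower. Gins3 was at 4.68 and 4.11 (−0.57), Gins4 at 1.23 and 0.97 (−0.26) and Gins1 at 1.17 and 0.98 (−0.19). Each rested on 1 measured probe and exceeded its spot SD, as did 75.6% of all genes measured on both arrays. Each stayed lower under all 10 alternatives, but with 1 probe the filters and the averaging of probes could not change the values. After normexp Gins2 was at −0.37, and with quantile normalization Gins3 was at −0.45. Cdc45, the third component of the active helicase, was higher by 0.60 (−2.08 and −1.48, 1.52-fold). That value also rested on a single probe and was 0.33 after normexp. The transcripts of the 3 components that form 1 machine were therefore not shifted in 1 direction.

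The sliding clamp and its loader were close to level. Pcna, the ring that tethers polymerases to DNA, was at 4.92 on both arrays (difference −0.01). Of the 5 RFC genes, which encode the clamp loader, Rfc5 was highest in difference (2.64 and 2.98, 0.33) and Rfc3 lowest (−0.67 and −0.89, −0.22). Rfc1, Rfc2 and Rfc4 lay within the spot SD (−0.06, 0.04 and 0.11).

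The genes of the catalytic polymerase subunits were all higher. Pola1, whose product starts each new strand with primase, was at 0.46 and 0.90 (difference 0.44). Pold1, of the polymerase mainly of the lagging strand, was at 1.80 and 2.21 (0.41). Pole, of the polymerase mainly of the leading strand, was higher by 0.29 at its brightest probe (−1.26 and −0.97), while its other probes gave −0.09 and 0.02. The higher values of Pola1 and Pold1 thus rested on 1 probe each, and that of Pole on 1 of 3.

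RPA coats the single strands that the helicase exposes, and 2 of its 3 genes were lower. Rpa1, the large subunit, was at 1.78 and 1.26 (difference −0.52), with −0.27 at its second probe. Rpa3, the smallest subunit, was at 2.29 and 1.93 (−0.36). Rpa2 was at 1.70 and 1.76 (0.07), within the spot SD. Of the nucleotide supply genes, Rrm1 (ribonucleotide reductase, large subunit) was higher by 0.20 (3.95 and 4.15) and Rrm2 (its small subunit) by 0.10, while Tyms (thymidylate synthase) differed by 0.08, within the spot SD.

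E2f2 had the largest difference of the 4 E2F genes among the members, at −0.12 on the WT array and 0.47 on the array labelled p38KO (0.59, 1.51-fold higher). This difference rested on a single probe and was 0.41 after normexp. E2f2 is one of the activating E2F factors, as are E2f1 and E2f3. E2f1 was at 1.20 and 1.08 (−0.12). E2f3 gave no single direction: its brightest probe, at transcript position 5001, was higher by 0.32, and a probe at position 1214 was lower by −0.41. E2f8, a repressor of the family, was higher by 0.20. Rb1, which holds E2F factors in check, was spotted 10 times, and was at 0.11 ± 0.08 (SD of 10 spots, −0.02 to 0.24) on the WT array and −0.05 ± 0.11 (−0.25 to 0.10) on the other. Its spots overlapped between the arrays, and 9 of 10 were lower on the array labelled p38KO (difference −0.17). The median of this group, 0.20, became −0.04 when the probes of a gene were averaged.

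The G1 cyclin and kinase genes were the group with the most members lower, 7 of 8 (median −0.16). The D cyclin arm carried the larger values. Ccnd3 was at 3.43 and 2.79 (difference −0.64, 1.55-fold lower) with −0.89 at its second probe, and Ccnd1 was at 1.95 and 1.42 (−0.53). Cdk6, a kinase partner of the D cyclins, was at 0.14 and −0.30 (−0.44). Cdk4, the other partner, was lower at each of its 3 probes, by −0.12, −0.17 and −0.72, the brightest probe giving the smallest value (4.02 and 3.90). Ccnd2 was the exception, at 3.02 and 3.10 (0.08, within the spot SD). The E cyclin arm was near level. Cdk2 was at 1.28 and 1.27 (−0.01), Ccne1 gave −0.08 at its brightest probe (−1.09 and −1.16) and 0.29 at another, and Ccne2 was dim on both arrays (−3.79 and −3.99, difference −0.20), within its spot SD. All 3 changed direction under at least 1 processing alternative.

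**Figure D3:**
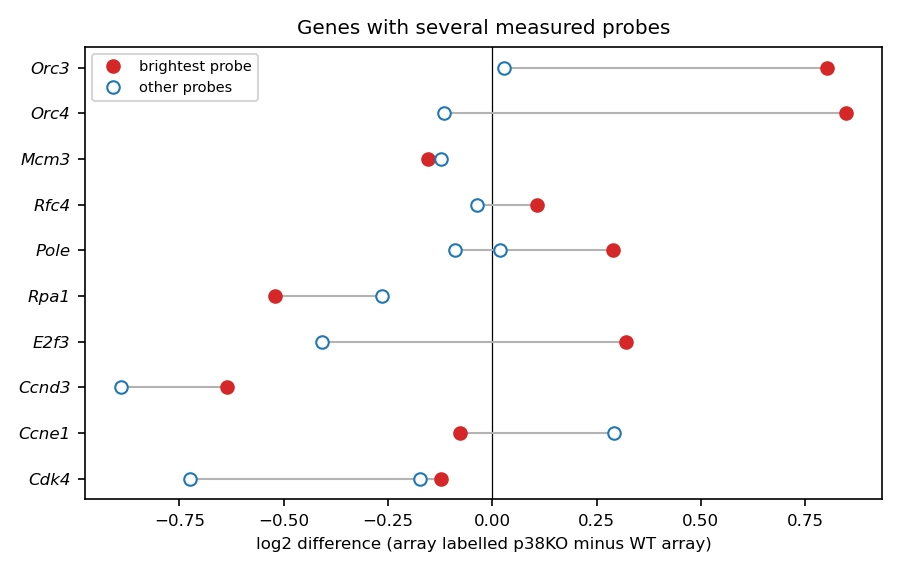
Differences (log2, array labelled p38KO minus WT array) of every measured probe of the 10 genes with several probes, filled for the brightest probe and open for the others. Orc4, Pole, E2f3 and Ccne1 have probes on both sides of 0 that lie further apart than the spot SD, and Ccnd3, Cdk4, Rpa1 and Mcm3 lie left of 0 at every probe.

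The choice of probe could be checked for few genes, since 38 of the 48 rested on a single measured probe. Of the 10 with several, 5 had all their probes on one side of 0 (Orc3, Mcm3, Rpa1, Ccnd3 and Cdk4). In 4 others, Orc4, Pole, E2f3 and Ccne1, the probes had opposite signs and lay further apart than the spot SD. E2f3 was the only one of these with a probe beyond the spot SD on each side of 0. In Rfc4 the signs also differed, by less than the spot SD.

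**Figure D4:**
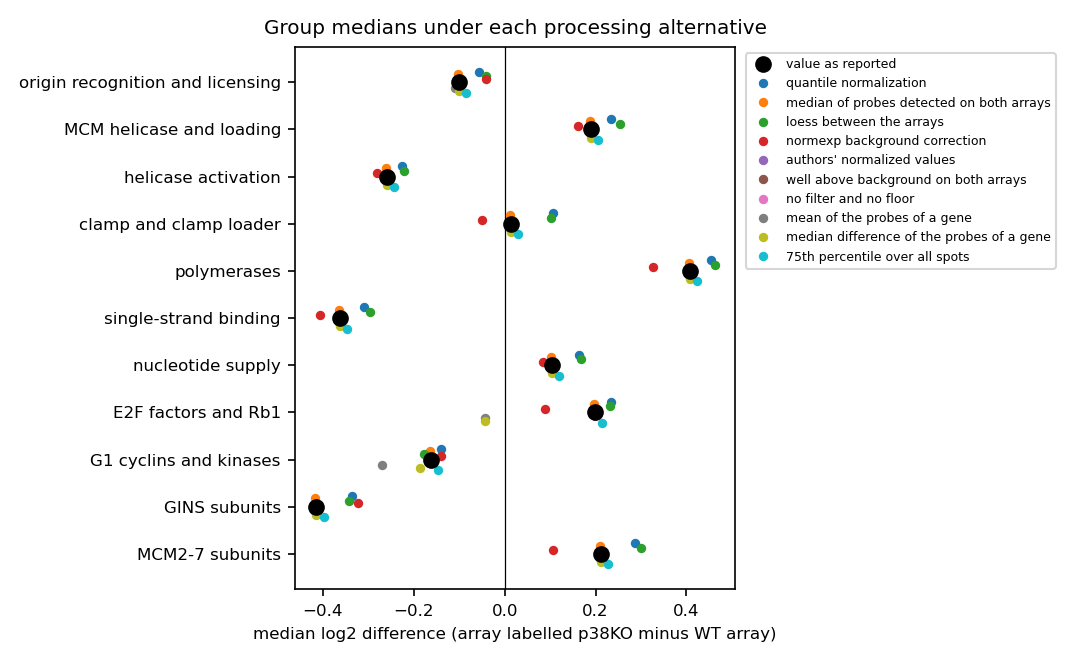
Median difference (log2) of each role group, and of the GINS and MCM2-7 subunits, as reported (large black point) and under 10 processing alternatives (small points, some hidden under the black one). The GINS points stay between −0.42 and −0.32 and the MCM2-7 points between 0.11 and 0.30, while the E2F group crosses 0.

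Other genes of the same pathway were also spread around 0. Of 84 measured of 85 further G1/S and replication genes, 46 were lower and 38 higher (median −0.01). Among 43 other replication genes (20 lower, 23 higher), Pold2, a subunit of the same polymerase as Pold1, was lower by −1.26 and Rnaseh2c by −0.69. Mcmbp, an MCM-binding protein gene, was higher by 1.25 at its brightest probe but −0.25 at another, and Asf1a, a histone chaperone gene, was higher by 1.25. The 13 other nucleotide supply genes had a median of −0.04. Among the 12 measured on both arrays the differences ran from Nme1 (−0.48) and Dctd (−0.36) to Rrm2b (0.29) and Mthfd1 (0.55), and Tk2, not well above background on the WT array, was at least 1.43-fold higher. Of 15 other Rb and E2F genes (median −0.01), E2f5 (−0.92) and Lin37 (−0.45) were lowest in difference and Rbl1 (0.34) and Tfdp1 (0.22) highest. Other G1 regulators were lower for 10 of 13 (median −0.23), with Mnat1, of the CDK-activating kinase, at −1.02 and Mycn at −0.51, whereas Ccna2 and Skp2 were higher by 0.34 and 0.29.

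Of the genes of the CDK inhibitors, the brakes on these kinases, 4 of 6 measured were lower, and Cdkn1a and Cdkn2b stood apart from the rest. Cdkn1a (p21) was at −3.68 and −1.26, a difference of 2.42 at its brightest probe and of 0.09 at the least changed of its 3 probes. Cdkn2b (p15) was at 0.33 on the WT array and not well above background on the other, at least 33.1-fold lower at its single measured probe. Cdkn1b, Cdkn2d and Cdkn1c differed by −0.24, −0.20 and −0.08 and Cdkn2c by 0.10, and Cdkn2a was well above background on neither. Genes of G2 and mitosis were higher for 22 of 34 (median 0.20), from Knl1 (−1.44) and Nek2 (−0.67) to Anln (0.99) and Espl1 (1.08).

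**Figure D5:**
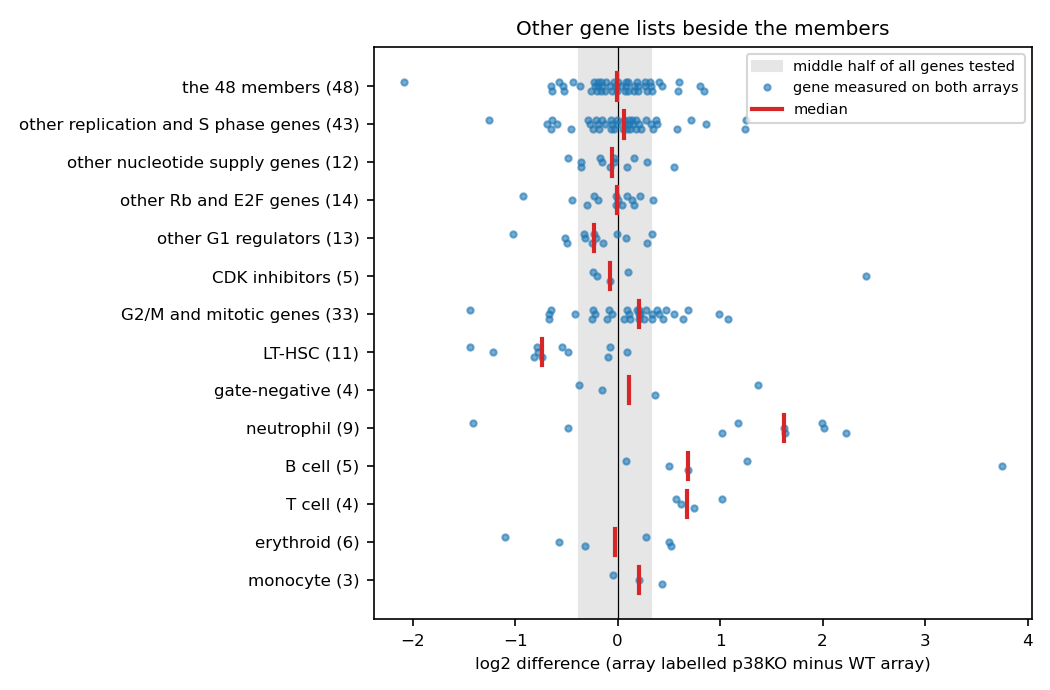
Differences (log2, array labelled p38KO minus WT array) of the 48 members and of each other list, 1 point per gene measured on both arrays, with a red bar at the median, the number of genes in brackets and grey for the middle quartiles of all genes tested. The members' median is at 0.00, while the LT-HSC median lies left of the grey band and the neutrophil, B cell and T cell medians right of it.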

How the data were processed

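LT-HSCs were hybridized to single-colour (Cy3) Agilent arrays, 1 per genotype on the same slide, and RNA extraction, hybridization and normalization were outsourced. The authors deposited scanner intensity values (Agilent Feature Extraction 11.5.1.1, background-subtracted, not normalized between arrays) and normalized log2 values of 35795 probes, each equal to the log2 signal minus 1 constant per array (7.16 and 6.84), with column medians of −0.79 on both arrays. Of 59305 non-control spots, 68.1% and 69.2% were well above background and 0 were saturated. Here outlier spots were dropped, repeated spots were averaged on the log2 scale, and the 75th percentile over distinct probes (7.16 and 6.85) was subtracted. A first run had used the percentile over all spots. The distinct-probe version follows the stated design and was adopted after the first values had been seen, and both are given. Probes were named through symbols or accessions (57.1% named), coordinates are those of the design (mm9), and the brightest probe stood for a gene. A level not well above background was replaced by the array's lowest detected signal where it lay under it. Members and lists were chosen with earlier results of these data known. All 48 members are described; those at least 1.5-fold changed, the extremes of each role group, genes whose probes differ in sign, the D and E cyclins, their kinases, Rb1 and the MCM2-7 genes are given in full, and from each other list the 2 largest differences each way and all CDK inhibitors. The calculations were tested on simulated data with planted 2-fold changes (199 of 199 changed genes recovered among 16331). The second array was simulated from the WT array with less noise than dim probes show. The recovery therefore checks the arithmetic only, not how well real changes are found. Smaller differences were not tested in this way. Python 3.11.15, numpy 2.4.6, pandas 2.3.3, matplotlib 3.10.9, R 4.3.3 and limma 3.58.1 were used. The number of arrays limits the precision.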

Additional observations from a re-analysis of the deposited data

How the results depend on the processing

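The results were recomputed with a median of detected probes in place of the percentile, with quantile and loess normalization (span 0.3), normexp (offset 50), the authors' normalized values, a filter on both arrays, no filter and no floor, the mean or the median difference of a gene's probes, and the percentile over all spots, the last added after values had been seen. With the percentile over all spots, the version first run, 22 members were lower and 26 higher, in place of 24 and 24. Over all 10, members lower ranged from 20 to 25 and their median from −0.01 to 0.09, and 37 of 48 kept their direction. The exceptions were Orc1, Orc6, Cdc6, Pcna, Rfc1, Rfc2, Rpa2, E2f3, Ccne1, Ccne2 and Cdk2. In members with 1 probe, the filters and the mean or median of probes could not change the value. Members at least 1.5-fold higher numbered 1 after normexp and 2 with the mean or the median difference of probes, in place of 4. The share of all genes at least 1.5-fold higher fell too, from 12.7% to 10.6% with the mean and 10.3% with the median difference. It was lowest after normexp, where the share at least 1.5-fold lower also fell, from 15.4% to 5.22%. Members at least 1.5-fold lower still numbered 3 after normexp. No member was 2-fold lower after normexp, a count of 0 in place of 1. The E2F and Rb1 median was −0.044 with the mean and with the median difference of probes. Only E2f3 changed in that group, from 0.32 to −0.044, while E2f1, E2f2, E2f8 and Rb1 kept their values. Why the probes of E2f3 differ was not tested. No paired analysis was possible because each genotype had 1 array, and for the same reason no replicate could be left out.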
